A study of Mus musculus with 4 samples.

Results

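Of 19984 autosomal H3K9me3 islands listed in naive CD8+ T cells, 4398 had at least 50% of their length covered by islands listed after 3 days of activation. These shared islands, 22.0% of the naive list (95% Wilson interval 21.4 to 22.6), are described here and set against the other 15586 naive islands. An island is a run of enriched 200 bp windows that the authors' caller joined into a single region, and each deposited island carries a count of reads. They were chosen by this overlap of the 2 lists, so the share itself is a description, and so is every measure of day 3 coverage.

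The cells were wild-type CD8+ T cells of C57BL/6 mice. The day 0 group was naive cells, and the day 3 group was cells cultured in vitro with antibodies to CD3 and CD28 in the presence of IL-2. Each day had 1 H3K9me3 native ChIP library, made from 4000000 cells and sequenced to about 100000000 paired-end reads of 150 bases per the labels, and 1 input library that was not analysed here. The labels do not give the number, age or sex of the mice or a purity of the sorted cells. With 1 ChIP library per day there is no replicate, no test between days was made, and every difference is between these libraries. The intervals printed are for counting error over islands, which neighbour one another and are not independent replicates. The islands held 3400431 reads on day 0 and 10416275 on day 3. The sources used here do not give mapped read totals, so read densities are not corrected for depth.

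Trimethylation of lysine 9 on histone H3 marks heterochromatin. It is written by the SETDB1 and SUV39H methyltransferases, is bound by HP1 proteins, and is known for silencing repeats, lineage-inappropriate genes and germline genes. In CD8+ T cells it is known as part of the machinery that silences genes of the memory and stem-like state as effector cells form. Native ChIP cuts chromatin that was not cross-linked with micrococcal nuclease, so it maps histones with little signal from other proteins. The cell identity itself cannot be read from such a map. For orientation, Cd8a, Cd8b1, Cd3e, Cd3g and Lck, which are genes active in these cells, had no island on either day. Cd4 had a day 0 island that was not shared. These genes are short, and absence is usual at their length. Only 3.70% of all protein-coding genes under 10 kb and 19.1% of those of 10 to 50 kb had a naive island. Of 21 T cell signalling genes, 3 had a shared island, 2 (Ptprc and Lcp2) only other naive islands, and 16 no naive island.

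Promoters were rarely inside naive islands, shared or not, and those inside shared islands had few CpG dinucleotides. Among 20085 promoter windows of protein-coding autosomal genes (250 bases before to 50 after a RefSeq transcript start), 72 windows of 67 genes, or 0.358%, lay wholly in a shared island. In the other naive islands, which were more numerous, lay 245 windows, or 1.22%. Per island there was little difference: 1.75% of shared islands and 1.77% of the others touched a promoter window, a difference of -0.02 points (-0.43 to 0.45). The median window in a shared island had 2 CpG (quartiles 1 and 4) and 39.7% GC, against 3 CpG and 46.3% GC in the other naive islands and 14 CpG and 57.0% GC over all windows. Of the 72 windows, 51 were also wholly inside a day 3 island and 15 lay outside day 3 islands, where only another part of the shared island was covered. The sequences below are the 250 bases before the annotated start for 6 of these genes, from RefSeq on GRCm38.p6. Whether these starts act as promoters in T cells was not tested. Not all 6 are CpG-poor: the whole Zswim2 window holds 10 CpG, above the upper quartile of 4. They are printed 5′ to 3′ on the strand of the gene, with each CpG in capitals.
Morc2a (chr11:3658422-3658671, plus strand): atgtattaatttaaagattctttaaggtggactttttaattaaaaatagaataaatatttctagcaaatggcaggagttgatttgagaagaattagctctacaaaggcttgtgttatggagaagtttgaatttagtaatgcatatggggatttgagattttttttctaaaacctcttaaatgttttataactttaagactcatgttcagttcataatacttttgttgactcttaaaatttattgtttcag
Olfr607 (chr7:103464127-103464376, minus strand): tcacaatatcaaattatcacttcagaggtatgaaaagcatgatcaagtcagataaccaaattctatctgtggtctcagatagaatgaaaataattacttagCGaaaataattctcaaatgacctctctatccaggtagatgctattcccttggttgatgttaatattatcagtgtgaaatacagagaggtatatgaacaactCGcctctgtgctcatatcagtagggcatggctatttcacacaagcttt
Olfr1449 (chr19:12934490-12934739, plus strand): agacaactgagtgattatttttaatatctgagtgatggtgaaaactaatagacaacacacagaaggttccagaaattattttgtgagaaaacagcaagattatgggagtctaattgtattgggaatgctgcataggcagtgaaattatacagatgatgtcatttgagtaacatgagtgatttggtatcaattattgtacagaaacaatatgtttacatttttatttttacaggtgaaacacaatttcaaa
Tas2r140 (chr6:133055794-133056043, minus strand): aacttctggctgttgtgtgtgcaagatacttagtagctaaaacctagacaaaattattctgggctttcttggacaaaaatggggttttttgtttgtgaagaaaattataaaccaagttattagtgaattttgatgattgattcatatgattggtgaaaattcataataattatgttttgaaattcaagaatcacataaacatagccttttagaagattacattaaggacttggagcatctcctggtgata
Zswim2 (chr2:83941227-83941476, minus strand): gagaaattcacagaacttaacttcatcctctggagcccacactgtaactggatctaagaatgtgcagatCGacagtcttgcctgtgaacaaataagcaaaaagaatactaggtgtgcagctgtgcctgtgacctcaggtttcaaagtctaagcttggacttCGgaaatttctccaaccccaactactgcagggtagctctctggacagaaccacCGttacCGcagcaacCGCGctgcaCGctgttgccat
Sgms1 (chr19:32349317-32349566, minus strand): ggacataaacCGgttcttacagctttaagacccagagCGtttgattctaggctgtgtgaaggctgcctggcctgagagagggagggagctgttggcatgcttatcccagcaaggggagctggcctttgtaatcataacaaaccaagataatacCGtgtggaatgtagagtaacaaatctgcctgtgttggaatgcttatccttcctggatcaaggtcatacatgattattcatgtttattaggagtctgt

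Morc2a encodes an ATPase that compacts chromatin with the HUSH silencing complex, and the start shown lies inside the gene body. No CpG is found in the stretches of Morc2a, Olfr1449 and Tas2r140. Those of Olfr607, Sgms1 and Zswim2 hold 2, 3 and 7. Olfr607 and Olfr1449 are odorant receptor genes, Tas2r140 is a bitter taste receptor gene, and Sgms1 encodes a sphingomyelin synthase. The islands around them held 30.6 reads per kb on day 0 for Morc2a, 48.2 for Olfr607, 47.5 for Olfr1449, 41.4 for Tas2r140, 40.8 for Zswim2 and 39.0 for Sgms1. Day 3 islands covered the whole 300-base window of each gene except Olfr1449, where they covered none of it. The E-box CACGTG, which reads the same on both strands, occurred in 2 of the 72 windows (2.78%), in 13 of the 245 (5.31%), and in 7.89% of all windows of this length. The 2 windows overlap and belong to the same gene, Mlip, so they are not separate cases. The classes also differ in GC, as given above, and the part of GC in these shares was not tested.

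Shared islands also lay over 9 of 919 autosomal miRNA hairpins, and 12 hairpins lay in the other naive islands. For comparison, 0.735% of protein-coding genes under 10 kb had a shared island, so the hairpin count is a description only. Both genomic copies of miR-16 were among the 9. Mir16-1 lies on chromosome 14 (61631880 to 61631972), and Mir15b and Mir16-2 lie together on chromosome 3 within Smc4, a condensin gene. Their main products share the seed AGCAGCA, known for targeting cell cycle genes and Bcl2. The others included Mirlet7d, Mir30a and Mir128-1, the last within R3hdm1. Mir128-2, the other genomic copy of miR-128, lay in no island on either day. The mature sequences from RefSeq are shown with the seed, bases 2 to 8, in capitals.
miR-15b-5p: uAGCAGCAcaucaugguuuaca
miR-16-5p: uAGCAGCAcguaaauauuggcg
let-7d-5p: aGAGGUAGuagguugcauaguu
miR-30a-5p: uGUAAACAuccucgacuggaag
miR-128-3p: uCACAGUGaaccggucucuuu

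The island over Mir16-1 held 172 reads on day 0 (37.4 reads per kb) and was covered over 91.3% on day 3. That over Mir15b and Mir16-2 held 235 reads (32.6 reads per kb) and was covered over exactly 50%, the least that the selection allowed. The island over Mirlet7d (159 reads, 37.9 per kb) was fully covered. Its cluster neighbours Mirlet7f-1 and Mirlet7a-1, looked up after this was seen, were in no day 0 island but lay in a day 3 island.

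Most naive islands were not covered by day 3 islands at all, and coverage of the rest was spread over the whole range. In 13265 islands (66.4%) no base was covered, 2321 (11.6%) were covered in part but under 50%, and 1144 were covered in full. Among shared islands the median coverage was 80.8% (quartiles 64.3 and 100%), and 26.0% of them were covered in full. In all, 17.2 Mb, or 78.3% of the sequence in shared islands, lay in day 3 islands. Around the limit, 412 islands were covered over 50 to under 55% and 276 over 45 to under 50%. Those just inside had a median of 33.4 reads per kb and those just outside 33.3, with median lengths of 5200 and 5600 bp. The limit therefore cuts a continuous range rather than a gap.

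**Figure D1:**
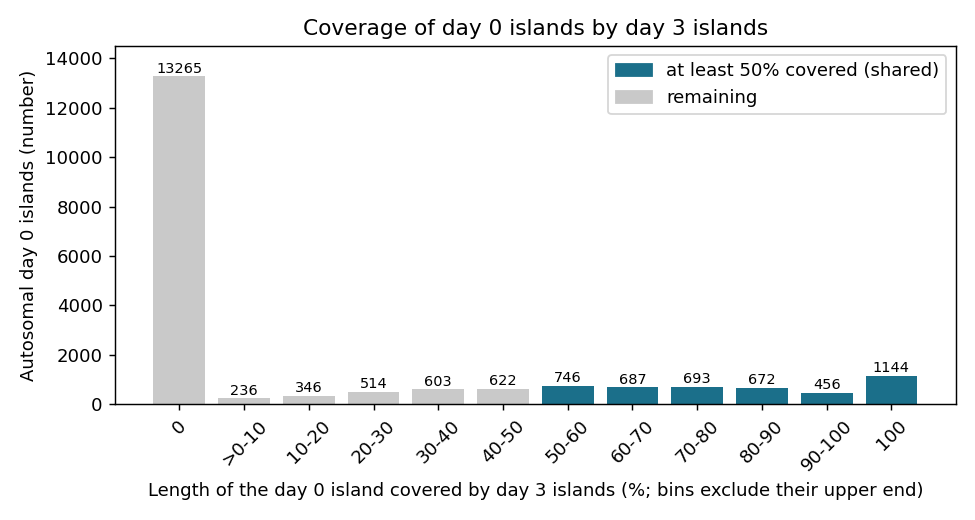
Number of autosomal day 0 islands (y axis) by the percentage of their length that day 3 islands covered (x axis), with shared islands in blue and the remaining ones in grey. The 13265 uncovered islands form the tallest bar, and the 1144 fully covered islands exceed every other bin of shared islands.

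Most shared islands had a single counterpart, but its borders seldom matched. A single day 3 island overlapped 3929 of them (89.3%), 2 overlapped 455, and 3 or more overlapped 14. In 215 (4.89%) the 50% was reached only by several day 3 islands together. The naive island was contained in its main day 3 island in 1144 cases, contained that island in 1003, and was shifted against it in 2251 (51.2%). Identical borders occurred in 22, and both borders lay within 1000 bp in 1003 (22.8%). The main day 3 island was a median of 1.06 times as long as the naive one (quartiles 0.764 and 1.55), and 2309 of the 4398 naive islands were shorter than it. Seen from day 3, 4765 islands of 47545 overlapped a shared island. Their median length was 4800 bp (quartiles 3600 and 6800), against 3600 bp for the 40484 day 3 islands with no naive counterpart. A longer day 3 island more easily covers 50% of a naive one, so the selection bears on this difference.

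Read density was higher on day 3 by a similar factor in most shared islands. Medians were 34.7 reads per kb for the shared islands and 53.0 for their main day 3 islands, without depth correction. The ratio had a median of 1.53 (quartiles 1.39 and 1.66), and 4392 of 4398 were denser on day 3. The day 3 list holds no island under 34.1 reads per kb, and 43.3% of the shared islands lay below that on day 0. For those islands a higher density on day 3 was fixed by the list. Over the complete lists the medians were 34.1 and 52.9 reads per kb, so the densities of shared islands on both days were near those of all islands. Across the 4398 shared islands, the densities of the 2 days had a Pearson's r of 0.25 and a Spearman's rho of 0.18, which describe islands that share 2 libraries. The lengths had r of 0.20 and rho of 0.23. The listed order of naive islands by density or length was thus only weakly that of their counterparts. Shared islands held a median of 160 reads on day 0, and their borders seldom matched. The part of counting error and of unmatched borders in these low values was not tested.

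Shared and other naive islands had the same median length at the 50% limit, and their read density differed slightly. The median length was 4800 bp in both (quartiles 3800 and 5800 bp in both). The direction of a length difference turned with the limit: shared islands were 400 bp longer in the median when any overlap counted, and the difference was -400 bp when 80% coverage was asked for. Shared islands had a median of 34.7 reads per kb and the others 33.9, a difference of 0.83 (95% interval 0.67 to 0.94). The quartiles, 32.5 and 37.4 against 31.7 and 36.5, overlapped widely. Of the least dense decile of naive islands 13.7% were shared (12.2 to 15.2), and of the densest decile 27.6% (25.7 to 29.6). The share per length class lay between 19.6% for islands of 8000 to 9800 bp and 23.3% for those of 3000 to 3800 bp, with no steady trend. Under 34.1 reads per kb, the density of the least dense day 3 island, were 43.3% of the shared islands and 52.4% of the others. The density difference was 0.21 reads per kb when any overlap counted as shared, 0.46 with a reciprocal limit of 50%, and 1.61 with 80% coverage, so its size depended on the definition.

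**Figure D2:**
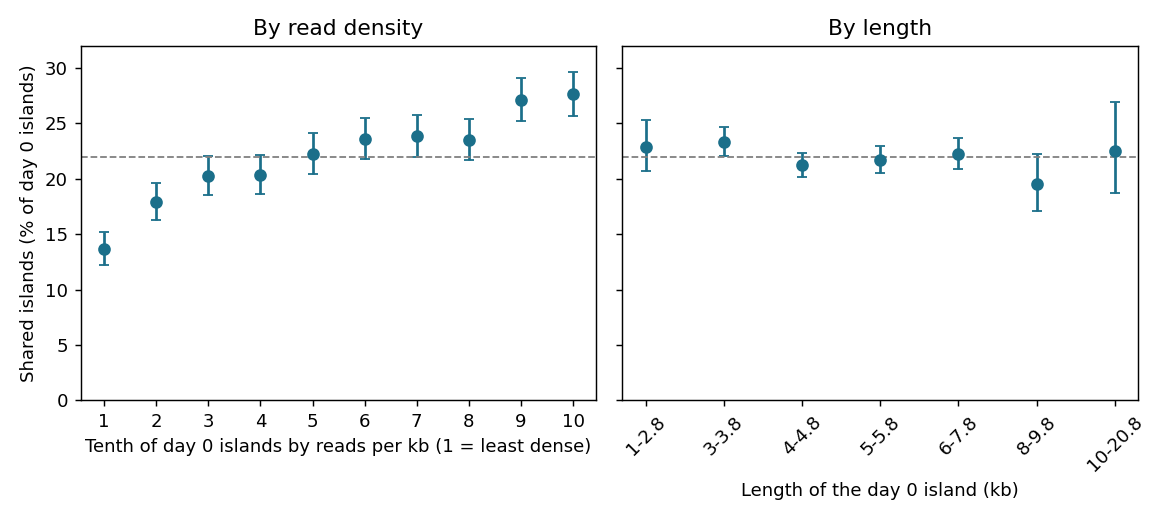
Shared islands as a percentage of day 0 islands (y axis) by decile of day 0 reads per kb (left) and by length class in kb (right), with 95% Wilson intervals and the overall 22.0% as a dashed line. The share runs from 13.7% in the least dense decile to 27.6% in the densest, while the length classes stay between 19.6 and 23.3%.

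Inside the shared set, fuller coverage went with shorter and denser islands. Median length was 5200 bp for coverage of 50 to under 75%, 4800 bp for 75 to under 100% and 4000 bp for full coverage. Median density was 33.7, 34.8 and 36.2 reads per kb in the same order. Short islands are more easily contained in another region, so these lengths are partly fixed by the grouping. The densest shared islands were also mostly short, and the part of length in the density difference was not tested.

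The 10 densest shared islands were mostly short and mostly outside genes. The densest lay near the centromeric end of chromosome 11 (3100201 to 3102600). It held 244 reads on day 0 (exact 95% Poisson interval 214 to 277), or 102 per kb, and its day 3 island held 139 per kb. Next were a 1000 bp island on chromosome 5 (57344801 to 57345800) with 72 reads per kb and one near the end of chromosome 4 (3089201 to 3091200) with 65. Both had lower densities on day 3, 60 and 61.5 reads per kb, and the chromosome 4 island had identical borders on both days. Among the 10 densest, those in Pja2, a ubiquitin ligase gene (58.6 reads per kb), and in Tbc1d19 (55 reads per kb) touched a protein-coding gene. In all, 6 shared islands were less dense on day 3. Of these 6 islands, 1 touched a gene, Tbx15, a developmental transcription factor gene, with 48.1 and 44.3 reads per kb.

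More of the 10 longest shared islands than of the 10 densest touched a protein-coding gene. Of all shared islands, 57.1% touched one, so the longest were near the usual share. A longer island meets a gene more easily, and the part of length in this difference was not tested. The island in Phf20l1, which encodes a reader of methylated lysines, was 19.2 kb long with 669 reads (34.8 per kb) and 82.3% covered. In Wnk1, a kinase gene of ion transport, 18.4 kb with 617 reads were 94.6% covered, and in R3hdm1 15.2 kb with 524 reads were 94.7% covered. In Stxbp5, Pou2f1 and Ddx4 the islands measured 18.8, 17.2 and 14.8 kb and were covered over 70.2, 54.7 and 85.1%. The other 4 of the 10 touched no protein-coding gene. Since reads accumulate with length, these islands were of ordinary density, from 31.1 to 34.8 reads per kb.

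The share of shared islands differed among chromosomes. It was highest on chromosomes 13 (25.7%, interval 23.3 to 28.2), 2 (25.1%, 23.2 to 27.1) and 3 (24.9%, 22.8 to 27.1). It was lowest on chromosomes 8 (17.3%, 14.7 to 20.3), 11 (18.1%, 15.8 to 20.6) and 6 (18.6%, 16.6 to 20.7). Between neighbours in this order the intervals overlap. Per Mb there were 2.60 shared islands on chromosome 13 and 0.951 on chromosome 8. The order resembled that of day 3 coverage, which was 5.22% of chromosome 7, 5.97% of chromosome 8 and 10.1% of chromosome 2. Across the 19 autosomes the share and day 3 coverage had a Pearson's r of 0.83 and a Spearman's rho of 0.84, as a description. Chromosome 6 lay low for its coverage (8.26%), and chromosome 17 lay high for its coverage (21.7% shared, 6.40% covered).

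**Figure D3:**
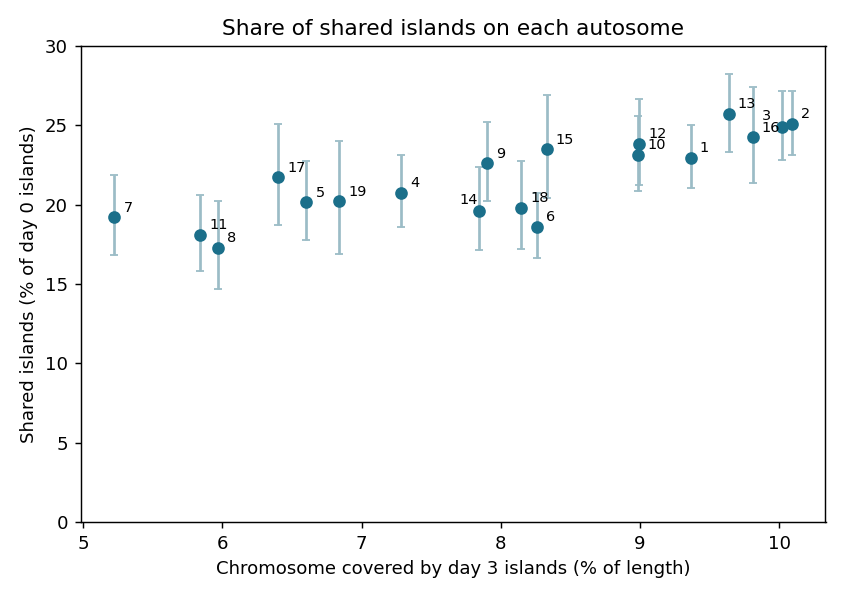
Shared islands as a percentage of day 0 islands on each numbered autosome (y axis, 95% Wilson intervals) against the percentage of the chromosome in day 3 islands (x axis, starting at 5). Chromosomes 13, 2 and 3 lie at the upper right and chromosomes 8 and 11 at the lower left.

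Along the chromosomes the share was lowest at the distal end. With each chromosome cut into 10 equal segments from the centromeric end, it was between 20.8 and 25.1% in segments 1 to 8. It was 18.5% (interval 16.9 to 20.3) in segment 9 and 18.3% (16.5 to 20.2) in segment 10. The number of day 3 islands was also lowest there, 3880 in segment 9 and 3277 in segment 10. Segment 1 had nearly as few, 3936, but a share of 22.6%.

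Shared islands had other islands near them. The nearest naive island was a median of 18.5 kb away for shared islands and 27.8 kb for the others. Day 3 islands covered a median of 15.5% of the flanking sequence (5 to 100 kb on both sides) of shared islands and 8.63% for the others. Sorted by this flanking coverage, 7.96% of the lowest quintile of naive islands and 39.4% of the highest quintile were shared. A naive island that followed a shared one was itself shared in 30.8% of cases (29.4 to 32.2), against 19.5% (18.9 to 20.2) after an island that was not shared. For gaps under 10 kb the values were 42.3 and 23.0%, and for gaps over 200 kb 22.2 and 14.7%. Where 2 neighbours are close, a single day 3 island can cover both.

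Consecutive shared islands formed 843 runs of 2 or more, which held 2195 of the 4398, and 2203 stood alone between islands that were not shared. The longest run was 12 islands over 688.8 kb of chromosome 13 (88722001 to 89410800), most of them in Edil3, a gene for an extracellular ligand of integrins. Runs of 10 lay on chromosome 18 over Dtwd2 and Dmxl1 (198.6 kb) and on chromosome 3 (881.2 kb). The latter runs through Med12l, the purinergic receptor gene P2ry12 and the arylacetamide deacetylase genes Aadac and Aadacl2. Counted in 1 Mb windows, chromosome 3 from 60000001 held the most, 23 of 35 naive islands. It was followed by chromosome 1 from 144000001 with Rgs21 (18 of 31) and chromosome 7 from 88000001 with Grm5, Ctsc and Rab38 (14 of 27). In windows with any shared island the median was 2.

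Shared islands lay in protein-coding gene bodies more often than the other naive islands. Of the shared islands 2513, or 57.1% (interval 55.7 to 58.6), touched a protein-coding gene body by at least 1 bp, against 50.2% (49.4 to 51.0) of the others. The difference was 6.94 percentage points (5.28 to 8.59), and the share was higher on 17 of the 19 autosomes. The share was higher at fuller coverage, from 49.8% of uncovered islands through 52.6% under 50% coverage, 54.8% and 56.9%, to 61.0% (58.2 to 63.8) of fully covered islands. With a reciprocal limit of 50% for both islands of a pair the difference was 1.83 points, with an interval from -0.04 to 3.69. With only the day 3 islands at or above the median density of that list, it was 13.3 points.

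The genic difference was found in regions rich in day 3 islands. In the 2 quintiles of naive islands with the most day 3 coverage in their flanks, the shared islands were genic in 57.4 and 67.4% and the others in 49.6 and 57.2%. In the lowest quintile the values were 46.2 and 51.8%, a difference of -5.61 points (-11.2 to 0.117), and in the next quintile they were 47.1 and 47.7%. In the middle quintile the difference was 2.35 points (-1.44 to 6.15). Split by naive read density, from the least dense quintile to the densest, the differences were 1.02 (-3.21 to 5.27), 3.38, 10.6 (6.92 to 14.2), 8.57 and 7.42 points (3.96 to 10.8), so the middle quintile had the largest. The quintiles of flanking coverage use the same day 3 list as the selection, and the part of the surroundings in the overall difference was not tested.

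**Figure D4:**
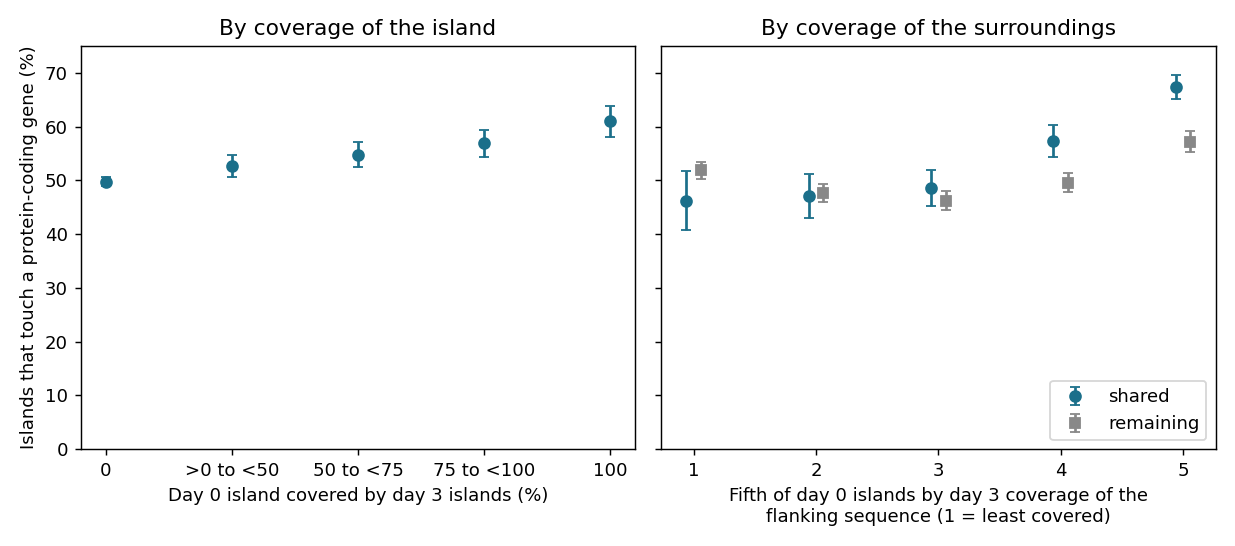
Percentage of day 0 islands that touch a protein-coding gene body (y axis, 95% Wilson intervals) by how much of the island day 3 islands covered (left) and by quintile of day 3 coverage of the flanking 5 to 100 kb (right), for shared (circles) and remaining (squares) islands. The share climbs from 49.8 to 61.0% with coverage, and the 2 classes separate only in the upper quintiles.

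Islands over lncRNA genes were shared less often. Of the islands that touched a lncRNA body and no protein-coding gene, 15.0% (13.4 to 16.8) were shared, against 20.5% (19.6 to 21.4) of those in neither kind of gene. They made up 5.75% of shared islands and 9.18% of the others. At least 1 bp of a shared island lay in 316 of 12408 lncRNA genes (2.55%), which is 17.0% of the lncRNA genes with any naive island. By length of the longest protein-coding gene touched, the shared part was 18.9% (14.3 to 24.6) for genes under 10 kb and 21.4% for 10 to 50 kb. It was 25.7% for 50 to 200 kb, 25.2% for 200 to 500 kb and 23.2% for longer genes. Within genes of at least 50 kb with a known strand, 16.8% of shared and 20.4% of other island positions lay in the last 20% of the body. In the first 20% the values were 18.8 and 18.7%.

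Shared islands touched 1612 of 20665 autosomal protein-coding genes, or 7.80%, and 32.5% of the 4957 genes with any naive island. In 579 genes every naive island was shared, 1033 had shared and other islands, and 3345 (16.2% of all genes) had only islands that were not shared. Of these 3345 genes, 1879 carried a day 3 island somewhere in the body. Zeb2, a transcription factor gene of terminal effector cells, is an example, with 5 naive islands over 30.4 kb, 8 day 3 islands over 31.7 kb and no shared island. The count followed gene length: a shared island was found in 0.735% of genes under 10 kb, 4.40% at 10 to 50 kb, 21.1% at 50 to 200 kb, 36.9% at 200 to 500 kb and 52.8% of longer ones. A single shared island was present in 1108 genes and 5 or more in 57.

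The genes with the most sequence in shared islands were long, but not the longest of the genome. Lrba, which encodes a trafficking protein that keeps CTLA-4 from degradation, had 68.2 kb in 11 shared islands (12.2% of a body of 559 kb). Its islands held 32.3 to 40.6 reads per kb on day 0, and their main day 3 islands 52.1 to 62.3. All 11 were denser on day 3 without depth correction, as were 4392 of all 4398 shared islands, so this is not particular to Lrba. Sox6, a transcription factor gene of the SoxD group, had 58.8 kb in 9 shared islands, beside 80.4 kb in 14 that were not shared.

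Edil3 differed from Sox6 in that all 10 of its naive islands were shared. They covered 56.8 kb and held 28.5 to 38.2 reads per kb on day 0, and their main day 3 islands held 48.6 to 64.4. Day 3 islands covered 208 kb of the gene, so the shared islands were the smaller part of its day 3 coverage. Rabgap1l, which encodes a GTPase-activating protein for Rab proteins, had 54.8 kb in 10 of 18 naive islands, and the bicarbonate transporter gene Slc4a10 had 50.2 kb in 9 of 12. Faf1, whose product binds the death receptor Fas, had 45.6 kb in 9 of 10, and the ciliary transcription factor gene Rfx3 44.4 kb in 8 of 9. Tbc1d5, a regulator of endosomal sorting, had 42.8 kb in 9 of 11 naive islands, and all 9 were at least 78.3% covered. Gmds, an enzyme gene of fucose synthesis, and Vps13b, a lipid transport gene, followed with 42.4 and 41.6 kb.

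In several of these genes a single day 3 island spanned more than 1 naive island. In Slc4a10 a day 3 island of 21 kb (chromosome 2, 62227601 to 62248600) with 62.5 reads per kb covered 3 naive islands of 8.8, 5.0 and 4.0 kb, which held 33.4, 37.4 and 36.2 reads per kb. In Faf1 a day 3 island of 19.8 kb (chromosome 4, 109733601 to 109753400) contained naive islands of 5.4 and 3.2 kb. In Rabgap1l a day 3 island of 14.4 kb (chromosome 1, 160518601 to 160533000) covered naive islands of 7.2 and 6.8 kb over 100 and 85.3%.

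Small genes could lie almost wholly in a shared island. Among genes of at least 5 kb, Fcer1a (chromosome 1, 173221269 to 173227232), a gene for part of the IgE receptor of mast cells, was inside a naive island over its full body. That island (173220401 to 173229000) held 33.6 reads per kb, was 58.1% covered, and its day 3 counterpart held 62.8. Smim18, on chromosome 8, was likewise inside over its full body, in an island of 33.7 reads per kb that was 66.7% covered. Only the naive islands span both genes completely: day 3 islands covered 3.23 kb of Fcer1a and 2.97 kb of Smim18.

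The laforin-partner gene Epm2aip1 followed with 89.6% of its body in a shared island, and Tcf24 had 87.5%. Ssb, which encodes the RNA-binding La protein, had 74.3%, Tmem74bos 65.6%, the syntaxin gene Stx19 64.6% and the milk protein gene Csn2 64.6%. Chil6, a chitinase-like gene, had 61.6% in 2 shared islands with 33.3 and 31.7 reads per kb on day 0, and the day 3 islands there held 59.1 and 61.3. The Stx19 island was at the limit, with 50% coverage.

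The share of T cell genes with a shared island lay near that of all genes in 4 of 5 lists, from 4.17 to 7.14% against 7.80%, and was 14.3% for T cell signalling genes. These are counts of 1 to 3 genes per list. Of 21 genes of naive and memory T cells, Satb1 alone had one (4.76%), and Bcl2, Bach2, Foxp1, Ets1, Myb and Ikzf1 had naive islands that were not shared. Satb1 encodes a chromatin organizer of T cells. The Satb1 island (chromosome 17, 51773401 to 51779000) held 162 reads, 28.9 per kb, and was 60.7% covered by a day 3 island with 53.5 per kb. It was no longer shared at 80% coverage, with a day 3 list as short as the naive one, or among naive islands of at least median density. Of 24 effector genes, Stat4, the transducer of interleukin-12 signals, alone had one (4.17%), of 2.6 kb with 42.3 reads per kb and full coverage. The day 3 island around it spanned 11 kb at 44.7 reads per kb, so the density ratio, 1.06, was among the low ones. The Stat4 island was not shared under the reciprocal limit or with the denser day 3 islands. Zeb2, Il12rb2, Prdm1 and Gzma had naive islands that were not shared. Satb1 and Stat4 are 97.1 and 120 kb long, and 21.1% of all genes of 50 to 200 kb had a shared island.

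Tox, a transcription factor gene of exhausted cells, was the 1 of 14 inhibitory receptor and exhaustion genes with shared islands (7.14%), 2 of its 8. They held 36.6 and 29.3 reads per kb on day 0 and were 52.6 and 63.3% covered by day 3 islands of 60 and 49.5 per kb. Tigit had a naive island that was not shared. Ikzf2, which encodes the Ikaros family factor Helios, was the 1 of 17 helper, regulatory and CD4 lineage genes (5.88%), with 1 of 7 naive islands shared (4.6 kb, 36.5 reads per kb, 65.2% covered). Neither Tox nor Ikzf2 had a shared island at 80% coverage, nor Ikzf2 with the shortened day 3 list. Tox is 305 kb long, and 36.9% of all genes of 200 to 500 kb had a shared island. Ikzf2 is 156 kb long, and 21.1% of all genes of 50 to 200 kb had a shared island. Among 21 T cell signalling genes 3 had one (14.3%), Arhgap15 with 4 of 8, Inpp4b with 2 of 7 and Pde4d with 7 of 26 naive islands. These are long genes (647, 792 and 1302 kb), and 52.8% of all genes over 500 kb had one. Arhgap15 encodes a GTPase-activating protein for Rac, Inpp4b a phosphoinositide phosphatase and Pde4d a cyclic AMP phosphodiesterase. In Arhgap15 2 of the 4 were fully covered, and the main day 3 islands held 50.4 to 58.0 reads per kb.

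**Figure D5:**
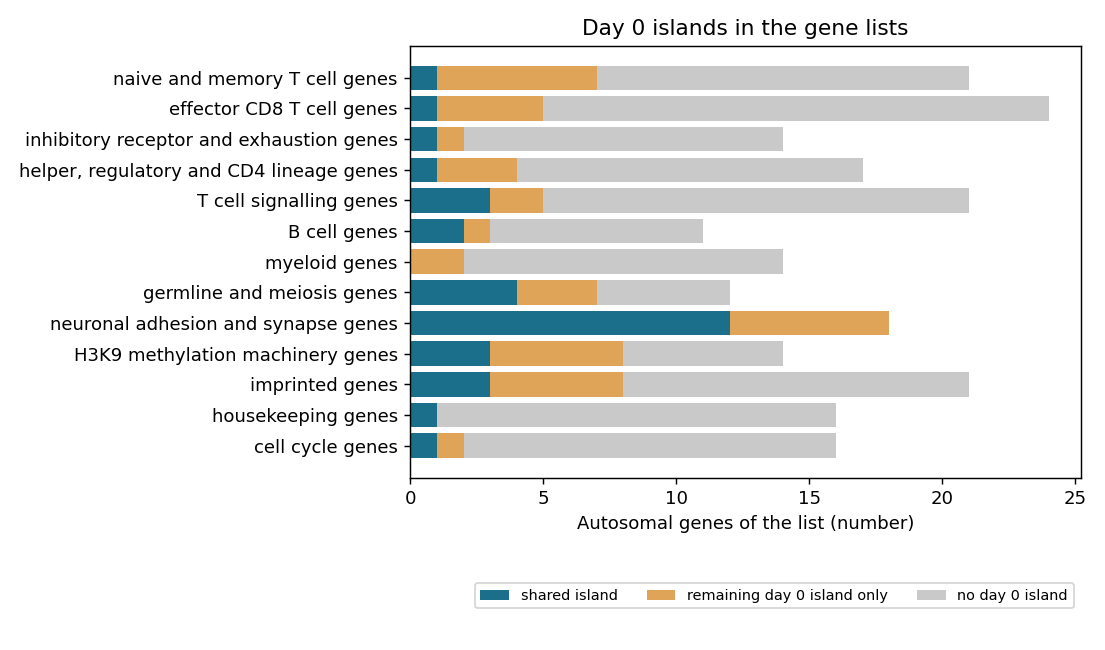
Number of autosomal genes (x axis) in each of 13 gene lists (y axis) with a shared island, with only other day 0 islands, or with no day 0 island. The 5 lists of T cell genes have 1 to 3 genes with a shared island, the neuronal list 12 of 18 and the germline list 4 of 12.

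Germline and meiosis genes had shared islands in 4 of 12 members (33.3%, against 7.80% of all genes), with a median length of 28.4 kb. Of the 4, Slc25a31 and Dmc1 are 10 to 50 kb long, a class in which 4.40% of all genes had one, and Ddx4 and Sycp1 are 50 to 200 kb long, where 21.1% had one. In Ddx4, the RNA helicase of germ cells (chromosome 13, 112598333 to 112652633), 3 of 4 naive islands were shared and covered 24 kb, or 44.2% of the body. They held 32.7, 40.3 and 33.2 reads per kb, and the main day 3 islands 54.0, 58.4 and 59.4. Slc25a31, a sperm ATP/ADP carrier gene, had 1 naive island of 9 kb (31.1 reads per kb) that lay wholly in a day 3 island of 15.2 kb (53.1 per kb). In the meiotic genes Sycp1 and Dmc1, 2 of 3 and 1 of 3 naive islands were shared, with coverage of 83.3, 78.9 and 95.8%. Spo11, Piwil2 and Dazl had naive islands that were not shared.

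Neuronal adhesion and synapse genes had shared islands in 12 of 18 members (66.7%). Their median length was 1467 kb, and 52.8% of all genes over 500 kb had one. Dlg2, a synaptic scaffold gene, had 37.2 kb in 8 of 22 naive islands, and Magi2, another scaffold gene, 32.6 kb in 6 of 18. In these genes shared islands were 1.89 and 2.19% of the body, far below the 12.2% of Lrba. Nlgn1, Ctnna2, Csmd1, Cdh13 and Rbfox1 were among those with naive islands but no shared one. Among B cell genes 2 of 11 had shared islands (18.2%, against 7.80% of all genes), the complement receptor gene Cr2 with both of its naive islands (12.6 kb, 31.4% of the body) and the transcription factor gene Ebf1 with 2 of 6. Ebf1 is 390 kb long, and 36.9% of all genes of 200 to 500 kb had one. Cr2 had no shared island at 80% coverage, and Ebf1 none with the denser day 3 islands. None of the 14 myeloid genes had one, a list too short to read against 7.80%, and Siglech and Csf1r had naive islands that were not shared.

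Of 14 genes of the H3K9 methylation machinery, 3 had a shared island (21.4%, against 7.80% of all genes). Ehmt1 is 129 kb long, and 21.1% of genes of 50 to 200 kb had one. Morc2a had 7 kb with 30.6 reads per kb, 80% covered by 2 day 3 islands together, and was not shared where a single one had to reach 50%. Setdb2, a member of the SETDB methyltransferase group, had 4 kb with 37 reads per kb, 90% covered, and Ehmt1, which encodes the methyltransferase GLP, 3 kb with 37 reads per kb, 53.3% covered. The Ehmt1 island was not shared at 80% coverage, with the shortened day 3 list or with the denser day 3 islands, while that of Setdb2 was shared under each of these rules. Setdb1, Kdm4c, Atf7ip, Cbx5 and Kdm4b had naive islands that were not shared. Imprinted genes had shared islands in 3 of 21 (14.3%, against 7.80% of protein-coding and 2.55% of lncRNA genes), and these were Kcnq1, Kcnq1ot1 and Plagl1. The first 2 share their islands and are not separate cases. All 5 shared islands of the potassium channel gene Kcnq1 reached into the body of Kcnq1ot1, the noncoding RNA that silences the cluster in cis (chromosome 7, 143213111 to 143296547). They covered 18.3 kb or 21.9% of Kcnq1ot1, held 42.2, 37.5, 32.9, 40.2 and 34 reads per kb on day 0, and lay in 3 day 3 islands of 58.4 to 69.2 reads per kb. The 5 other naive islands in Kcnq1 were not shared. Under the reciprocal limit, shared islands covered 6.2 kb of Kcnq1 and 6.2 kb of Kcnq1ot1. Kcnq1 is 320 kb long, and 36.9% of all genes of 200 to 500 kb had a shared island. Plagl1 is 40.9 kb long, and 4.40% of all genes of 10 to 50 kb had one. Housekeeping and cell cycle genes had a shared island in 1 of 16 each (6.25%), in Sdha (0.346 kb of the body) and in Cdk6.

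Among gene families, shared islands were found in 18 of 388 Zfp zinc finger genes (4.64%), 21 of 1104 olfactory receptor genes (1.90%), 2 of 230 vomeronasal receptor 1 genes and 2 of 122 vomeronasal receptor 2 genes, against 7.80% of all genes. By length, 4.40% of all genes of 10 to 50 kb had one, the class of the median Zfp gene (17.98 kb), and 0.735% of genes under 10 kb, the class of the median olfactory receptor gene (0.95 kb). None was found in 57 clustered protocadherin genes, of which 13 had naive islands that were not shared, nor in 75 histone genes or 57 Cyp2 and Cyp3 genes. The median histone gene (0.502 kb) is also under 10 kb, and the median Cyp2 and Cyp3 gene (26.1 kb) is in the class of 10 to 50 kb. The median protocadherin gene is 90.3 kb long, and 21.1% of all genes of 50 to 200 kb had one. These genes lie in clusters and are not separate cases. Zfp804a had the most sequence in shared islands among the Zfp genes, 11.4 kb in 3 of 4 naive islands. In Zfp407, by contrast, 2 of 8 naive islands were shared although day 3 islands covered 114 kb of the gene. Of 18 Sox genes, Sox6 and Sox5 had shared islands, and Sox5 had 3 of its 17.

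Some genes with much naive H3K9me3 had no shared island at all. Among those with the most sequence of this kind were Ppargc1a, a coactivator gene of mitochondrial biogenesis, with 11 naive islands, the calcium channel gene Cacna1c with 12, the kinesin gene Kif26b with 12 and the ciliary gene Rpgrip1l with 5. These 4 genes carried day 3 islands as well, 11 in Ppargc1a, 6 in Cacna1c, 3 in Kif26b and 4 in Rpgrip1l. When any overlap counted, naive islands that met a day 3 island covered 33.6 kb of Rpgrip1l, 12.8 kb of Kif26b and 8.2 kb of Ppargc1a, so in these genes some islands overlapped below the limit. In Cacna1c no naive island met a day 3 island.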

How the data were processed

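The labels list 4 libraries, and this work used the deposited island lists of the 2 H3K9me3 ChIP libraries. The submitters' processing notes name Bowtie2, SICER version 1.1 and the genome build mm10. The sources used here do not give the significance threshold, the gap size, the duplicate filter or the use of input. The deposited lists have no header. The fourth column was read as a raw count of reads per island, since it is whole, and the authors' counts are not scaled for depth. Reads per kb are that count over the island length.

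Chromosomes 1 to 19 were kept, which left out 5 islands on day 0 and 8 on day 3. Borders are 1-based. Coverage of each day 0 island was summed over all day 3 islands, with no limit on their number. Computations used Python 3.11.15, numpy 2.4.6, pandas 2.3.3 and scipy 1.17.1. Gene bodies, promoter windows and miRNAs came from RefSeq tables of assembly GRCm38.p6, which mm10 corresponds to. All 224 listed genes were found and 219 are autosomal. Shares have 95% Wilson intervals, medians order-statistic intervals and differences intervals built from both. The interval code was tested on simulated data.

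Named genes were the 10 with the most bases in shared islands, the 10 of at least 5 kb with the largest covered share, those at the 10 densest and 10 longest shared islands, all listed genes with one, and the 5 with the most bases in naive islands and no shared one. Some genes that this rule names are not reported here. Predicted genes were left out, with at most 2 per symbol stem. Up to 6 promoters were printed, listed genes first and then by density. The members and lists were chosen with earlier results of these data known. Mir128-2, Mlip, Tbx15, Zeb2, the neighbours of Mirlet7d and the runs and windows were named after their values were seen. Alternatives changed the overlap rule, the density of islands kept and the length of the day 3 list.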

Additional observations from a re-analysis of the deposited data

How the results depend on the processing

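No paired analysis was possible because each day has 1 library and no test was made. The values below replace 22.0% of naive islands shared, 1612 genes, a median length difference of 0 bp, a density difference of 0.83 reads per kb and a genic difference of 6.94 points (shared minus other naive islands). With any overlap counted, 33.6% were shared, the length difference was 400 bp and the density difference 0.21. With 80% coverage, 11.4% were shared, in 970 genes, with differences of -400 bp and 1.61 reads per kb. With a single day 3 island required, 20.9% were shared. With a reciprocal 50%, 16.5% were shared, and the density and genic differences were 0.46 and 1.83. With the day 3 list cut to the length of the naive list, 15.4% were shared, with differences of 200 bp, 0.65 reads per kb and 9.9996 points. With day 3 islands of at least their median density, 11.2% were shared, in 975 genes, with 1.09 reads per kb and 13.3 points. With naive islands of at least their median density, 25.2% were shared, with 0.34 reads per kb and 8.72 points. With naive islands at least as dense as the least dense day 3 island, 25.2% were shared, with 0.29 reads per kb and 8.80 points. In these settings the density and genic differences kept their sign, with the reciprocal interval of the genic difference reaching below 0, and the length difference changed sign between them. The cause was not tested. Of the 60 named genes with a shared island, 19 had none left at 80% coverage, 12 with the denser day 3 islands and 4 with the reciprocal rule.

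No mapped totals were at hand, so the part of depth in these lists was not tested. A naive island without a day 3 counterpart shows that no region passed the authors' threshold there, and the day 3 list starts at a higher read density (34.1 per kb) than the naive list (23.6 per kb).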

Other observations

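The following were chosen after their values were seen. The lncRNA gene with the most sequence in shared islands was Gm20275 on chromosome 9, with 29.6 kb in 5 of 6 naive islands, and it was followed by Gm46093 on chromosome 1 with 19 kb in 3 of 3. Kcnq1ot1 had 18.3 kb. Junos, a noncoding gene beside the transcription factor gene Jun, had 11.2 kb in 2 of 3 naive islands. In the 1 Mb window of chromosome 13 from 85000001, which holds the Ras GTPase-activating gene Rasa1, 13 of 19 naive islands were shared, a higher share than in the window of chromosome 3 from 60000001 (65.7%).

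Among the shared islands less dense on day 3, that on chromosome 2 from 74988201 held 47 and 45.6 reads per kb, and that on chromosome 9 from 92224601 held 50.6 and 46.7. All 6 were at most 2600 bp long and lay wholly inside their day 3 island. Partly covered naive islands that were not shared had the lowest median density of the 3 classes, 33.3 reads per kb, and the longest median length, 5600 bp, against 34 reads per kb and 4600 bp for uncovered ones.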
